A study of Mus musculus with 15 samples.

Results

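RNA of mouse liver was compared between 5 libraries from mice given the compound KSL0608-Se plus irradiation and 5 libraries from aged control mice. These are 10 of the 15 liver libraries of the study. The other 5 come from young control mice, entered the same statistical model, and are given beside them where they help. The libraries are called treated, aged and young from here on and are numbered as in their labels. Of 55849 genes in the table, the 12168 with a mean TPM (a level per transcript length and library, scaled to the same total in every library) of at least 1 in these 15 were compared, on the scale of log2(TPM + 1). KSL0608-Se is known here only by its code name. Beyond tissue, group and replicate number the labels state no age, sex, strain, dose, irradiation setting or time of sampling, and they do not say how old the treated mice were. None of the 15 libraries is labelled as given the compound or the irradiation alone. As the labels do not name the animal of each library, the p-values describe library-to-library spread, part of which may be technical.

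Senescent cells have left the cell cycle for good. They hold high levels of cell cycle inhibitors such as p16 and p21, have enlarged lysosomes, and secrete cytokines, chemokines and proteases that draw in immune cells. Senolytic treatments are meant to kill such cells and spare their neighbours, and a photoactivatable one acts where light reaches it. Most liver RNA comes from hepatocytes, which make plasma proteins and carry out the metabolism of fatty acids, amino acids and drugs. Kupffer cells, the resident macrophages of the liver, clear dying cells and debris.

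The sequences below belong to the results that follow. The first is a stretch of 255 bases, from base 120 to base 374 of the 385-base predicted gene Gm42605 on chromosome 5, read from GENCODE M21. It is shown because 5 other predicted genes hold the same bases on the same strand, so that a read from it does not tell which gene it came from. All of its letters are in capitals because all are shared.
Gm42605, shared stretch: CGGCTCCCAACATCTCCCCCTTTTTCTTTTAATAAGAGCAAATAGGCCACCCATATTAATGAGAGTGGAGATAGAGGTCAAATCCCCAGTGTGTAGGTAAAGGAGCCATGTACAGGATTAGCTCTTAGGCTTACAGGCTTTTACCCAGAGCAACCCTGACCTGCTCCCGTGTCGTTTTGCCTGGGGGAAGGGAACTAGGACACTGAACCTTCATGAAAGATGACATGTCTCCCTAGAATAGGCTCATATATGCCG
The other sequences are RefSeq promoters (GRCm38.p6), from 250 bases before to 50 bases after the start of the gene, of Oas1g and Gbp3. Of the members of the list of interferon-stimulated genes used below these have the smallest p between treated and aged livers. The list does not hold Ifi204, also interferon-inducible, whose p is smaller. Capitals mark the letters GAAANNGAAA or their reverse complement TTTCNNTTTC, which are those of the interferon-stimulated response element. Each promoter shown holds 2 overlapping matches, and the window of another annotated Gbp3 start holds none.
Oas1g, chr5:120887564-120887863, minus strand: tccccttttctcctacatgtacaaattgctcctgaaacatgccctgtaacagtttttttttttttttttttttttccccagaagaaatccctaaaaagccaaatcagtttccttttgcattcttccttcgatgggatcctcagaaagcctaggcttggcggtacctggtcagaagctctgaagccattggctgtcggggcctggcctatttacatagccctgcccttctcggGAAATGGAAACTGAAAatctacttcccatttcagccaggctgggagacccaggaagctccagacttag
Gbp3, chr3:142559794-142560093, plus strand: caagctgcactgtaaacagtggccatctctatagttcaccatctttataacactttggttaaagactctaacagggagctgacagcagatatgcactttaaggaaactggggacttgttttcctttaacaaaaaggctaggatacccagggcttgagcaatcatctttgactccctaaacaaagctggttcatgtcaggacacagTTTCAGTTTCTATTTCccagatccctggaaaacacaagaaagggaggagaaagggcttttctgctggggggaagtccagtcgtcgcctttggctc

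Treated and aged livers differed in 1 called gene. Called means a limma p under 0.05 after Benjamini-Hochberg adjustment over all 12168 tested genes, and the call rate was 0.00822%. The gene was Gm42605, higher in treated livers. The next smallest limma adjusted p was 0.404, and the one after the pair of genes at that value was 0.925. At an unadjusted p under 0.05, 365 genes (3.0% of those tested) had higher and 172 (1.41%) had lower means in treated livers, 537 in all, and 5% of the tested genes would be 608.4. This count depended on single libraries. With single libraries left out it was lowest at 265 (treated 2 left out), then 320 (aged 3), 350 (treated 5) and 354 (aged 1), and highest at 851 (young 4) and 990 (treated 4). The split by direction depended on the scaling of the libraries, since quantile normalization gave 390 genes with higher and 417 with lower means, and scaling by median ratios gave 408 and 355. The plot of all tested genes shows Gm42605 apart from the other tested genes.

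**Figure D1:**
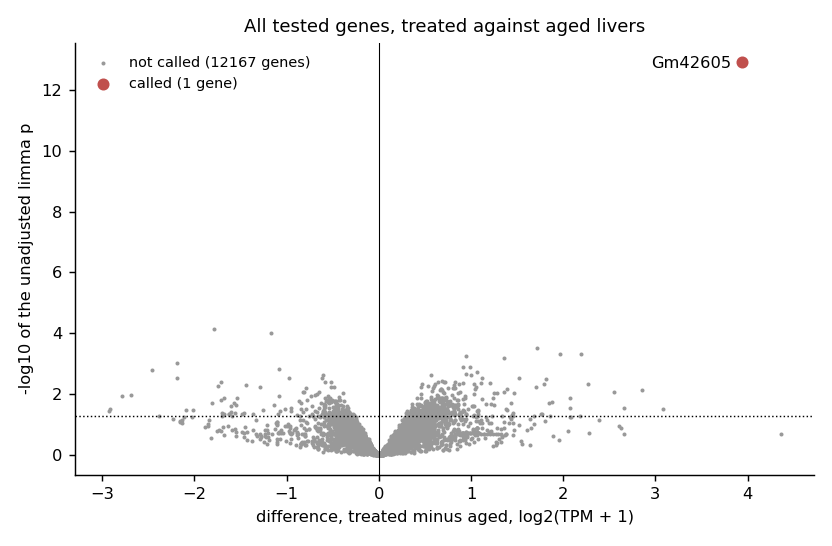
Each point is 1 of the 12168 tested genes, with the difference between treated and aged livers on the log2(TPM + 1) scale on the horizontal axis and −log10 of the unadjusted limma p on the vertical axis. The dotted line is an unadjusted p of 0.05. Gm42605, at a difference of 3.94, is the only called gene.

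The precision of the comparison can be read from the confidence intervals. The 95% interval of a gene's log2 difference had a median half-width of 0.45, with an interquartile range of 0.38 to 0.56. For 10212 genes (83.9%) the whole interval lay within 1 log2 unit of 0. A difference of 1 log2 unit or more in the means was measured for 259 genes, 150 higher and 109 lower in treated livers. Over all tested genes the median difference was 0.00, and 6046 genes (49.7%) had a higher mean in treated livers.

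Libraries within a group differed about as much as libraries of different groups. Pearson's r across tested genes ranged from 0.929 to 0.96 between treated libraries, from 0.928 to 0.968 between aged libraries and from 0.905 to 0.963 between a treated and an aged library. The median SD of a gene was 0.27 on the log2 scale in treated livers and 0.26 in aged livers. Treated 1 had the lowest value of the treated group for 53.6% of genes, against 4.82% for treated 3, and list medians below are given with their range over left-out libraries. Aged 2 and aged 4 held skeletal muscle genes, with Acta1 at 131 and 52.5 TPM against at most 1.45 TPM in the other 8 libraries. Genes listed above 0 TPM, the share of the 10 most abundant genes and the shares of mitochondrial and globin RNA showed no difference between the groups beyond the spread between libraries (2-sided exact permutation tests, smallest adjusted p = 0.968 over the 4 features).

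Gm42605 is a predicted gene of 385 bases on chromosome 5 in GENCODE M21. It stood at 8.86, 16.7, 17, 14.4 and 16.6 TPM in treated livers 1 to 5, and it was listed at 0 in all 5 aged libraries. The groups do not overlap, and in young livers it was listed at 0 in all libraries but 1, which held 0.46 TPM. Gm42605 thus met the filter only through the treated group, and it was also called without a filter. The log2 difference was 3.94 (SE 0.18, limma adjusted p = 1.52e-09, n = 5 each).

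An exact search of the annotated transcripts found that Gm42605 is not unique. Gm44267 on chromosome 6 is identical to it over all 385 bases. Gm42634 and Gm43836, both on chromosome 5, match its first 381 bases over their whole length, and Gm43107 and Gm43521 on chromosome 3 are the 255-base stretch printed above. On the opposite strand, 2 further models of 293 bases, Gm43108 and Gm44380, are contained in it, and a transcript of Noct and the predicted gene Gm38226 hold all of it. Noct, a circadian phosphatase gene, itself stood at 57.5 ± 33.6 TPM in treated livers and 34.2 ± 12.9 TPM in aged livers. The search and the sums below were chosen after the values of Gm42605 had been seen.

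The copies held values in different libraries. Gm42634 was listed at 0 in treated 2 to 5 and at 8.33 TPM in treated 1, and it held 17.3, 5.27 and 27.9 TPM in aged 2, 3 and 5. Gm43836 held 7.55 and 34.7 TPM in treated 2 and 3, against 13.5 and 5.19 TPM in aged 2 and 4, and was listed at 0 in the other libraries of both groups. Gm44267 held 8.08 and 0.47 TPM in treated 2 and 5, against 12.1, 0.05, 11.5 and 10.9 TPM in aged 1 to 4. Each aged library that was at 0 for Gm42605 thus had a value for at least 1 gene with identical bases. Summed over the 6 models of the same strand, the level was 17.2, 50.9, 61.3, 30 and 22.9 TPM in treated livers 1 to 5 and 20.9, 46.5, 16.7, 23.3 and 60 TPM in aged livers 1 to 5. The groups overlap over nearly their whole range. Their means were 36.5 ± 18.9 TPM in treated and 33.5 ± 18.8 TPM in aged livers (SD, n = 5 each). In young livers the sum was 2.95, 3.8, 1.73, 20.6 and 10.5 TPM.

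With the summed value in place of the 6 separate ones, the log2 difference was 0.13 (SE 0.55, 95% interval −1.04 to 1.31, limma adjusted p = 0.99). No gene of 12163 was then called, the smallest adjusted p being 0.604, and 536 genes had an unadjusted p under 0.05. With Gm43108 and Gm44380 of the opposite strand added to the sum, the difference was 0.17 (SE 0.54, limma adjusted p = 0.985). Noct and Gm38226, which hold all of the sequence, were not part of either sum. How reads that match several genes were shared out is not given in the sources used here.

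**Figure D2:**
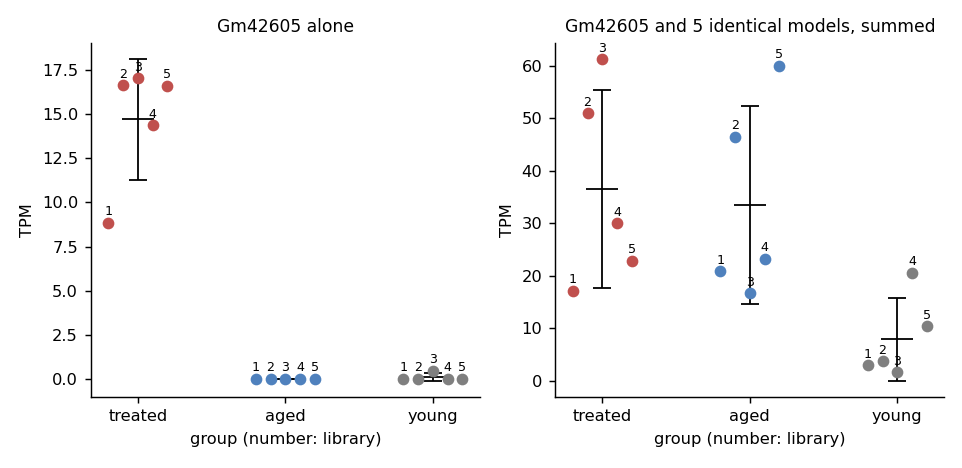
TPM of Gm42605 alone (left) and of Gm42605 summed with the 5 same-strand models that are identical to it or to part of it (right), in the treated, aged and young libraries. Points are libraries with their number, the horizontal bar is the mean and the error bar the SD (n = 5 per group). Alone, all aged libraries are at 0, while the sums overlap between 17.2 and 61.3 TPM in treated and 16.7 and 60 TPM in aged livers.

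In 84 genes the treated libraries did not overlap with the aged ones. All treated libraries were higher in 49 genes (0.403% of those tested) and all were lower in 35 (0.288%). Of these, 41 and 18 had an unadjusted limma p under 0.05, and Gm42605 alone was called. Random group labels would separate a gene without ties with a probability of 0.00794. The 49 and 35 genes together stayed below that share of the tested genes. The higher ones include 14 predicted genes or variable segments and the lower ones 3. The genes named here are those with the smallest p among the 15 higher and 24 lower ones that are neither predicted genes nor variable segments and that reached a group mean of 5 TPM. For all of them the limma adjusted p was 0.925.

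Ifi204, an interferon-inducible DNA sensor of the mouse, had the smallest p of the higher genes named by this rule. It stood at 4.6, 9.12, 7.43, 5.78 and 10.1 TPM in treated livers, against 2.47, 2.27, 3.8, 4.39 and 4.14 TPM in aged livers. The lowest treated library, treated 1, lay just above the highest aged one, aged 4. The log2 difference was 0.91 (95% interval 0.42 to 1.41). Clec12a, an inhibitory lectin receptor of myeloid cells, stood at 4.55, 10.7, 5.31, 4.36 and 13.3 TPM in treated and 2.21, 2.73, 2.59, 3.82 and 3.86 TPM in aged livers, with a difference of 0.99 (95% interval 0.45 to 1.53). Its high values were in treated 2 and 5, and treated 4 lay close to the aged range. Pdcd10, an adaptor of vascular cell signalling, stood at 12.1, 14.9, 13.5, 9.04 and 13.7 TPM in treated and 5.63, 8.04, 6.17, 8.48 and 7.97 TPM in aged livers, a difference of 0.72.

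Tmtc2, which encodes a mannosyltransferase of the endoplasmic reticulum, was the most abundant of the named higher genes, at 279, 443, 296, 361 and 328 TPM in treated and 273, 208, 112, 225 and 260.2 TPM in aged livers. Treated 1 and aged 1 nearly touch. The log2 difference was 0.71 (95% interval 0.20 to 1.21). Lsm6, part of an RNA-processing ring, averaged 42.9 ± 8.13 TPM in treated livers and 28 ± 4.44 TPM in aged livers (SD, n = 5 each). The other higher genes had differences of 0.33 to 0.70. They were Ctps2, a CTP synthase, Elk4, an ETS transcription factor, Fuca2, a secreted fucosidase, Nrp1, a co-receptor for semaphorins and VEGF, Zfand5, a zinc finger protein, and Nras, a small GTPase.

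Serpina1e, a member of the α1-antitrypsin family, had the largest difference of the named higher genes at 1.79 (95% interval 0.66 to 2.93). It stood at 460.5, 461, 159, 108 and 153 TPM in treated and 93.4, 64.2, 42.9, 43.7 and 92.9 TPM in aged livers, with treated 1 and 2 about level and far above the rest. The family has 5 near-identical genes, between which reads can be split. Summed over the 5, the level was 23196 ± 2906 TPM in treated and 25859 ± 3394 TPM in aged livers (SD, n = 5 each), and Serpina1e made up only a small part of it. Young livers held 302 ± 200 TPM of Serpina1e.

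Among the genes named by the same rule that were lower in every treated library, Gclc had the smallest p. It encodes the catalytic subunit of glutamate-cysteine ligase, the rate-limiting enzyme of glutathione synthesis. Gclc stood at 46.5, 55.9, 53.5, 56.0 and 38.2 TPM in treated livers, against 79.7, 72.0, 85.2, 87.5 and 61.7 TPM in aged livers. The highest treated library, treated 4, lay below the lowest aged one, aged 5, and the log2 difference was −0.62 (SE 0.18, 95% interval −1.0 to −0.24). Young livers stood at 76.1 ± 18.2 TPM. Ugt1a6a, a glucuronosyltransferase of drug metabolism, stood at 29.6, 31.5, 32.9, 32.5 and 25.1 TPM in treated and 41.3, 40, 51.2, 42.7 and 34.6 TPM in aged livers. It shares most of its sequence with Ugt1a6b, and the pair summed to 64.7 ± 11.1 TPM in treated and 91.6 ± 13.7 TPM in aged livers, with treated between 52.1 and 78.1 and aged between 78.5 and 112 TPM.

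Other lower genes have copies as well. Rps27rt, a retrogene of ribosomal protein S27, stood at 2.36, 16.6, 3.6, 20.9 and 17.4 TPM in treated and 37.8, 37.2, 45.3, 30.7 and 25.7 TPM in aged livers (log2 difference −1.81). Its parent gene Rps27 averaged 1033 ± 287 TPM in treated and 1165 ± 481 TPM in aged livers. Whether the 2 genes share reads was not tested. Entpd4, a nucleoside diphosphatase, averaged 12.4 ± 2.95 TPM in treated livers and 17.3 ± 2.01 TPM in aged livers, while the sum with its copy Entpd4b, 19.7 ± 2.98 TPM in treated and 22.5 ± 2.18 TPM in aged livers, overlapped between the groups. The remaining lower genes had differences of −0.51 to −0.34. They were Clmn, Rbpms2, an RNA-binding protein gene, Nt5dc2, Eepd1, Mul1, a ubiquitin ligase of the mitochondrial outer membrane, Lnx2, also a ubiquitin ligase, Ssbp3 and Ppfibp2.

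**Figure D3:**
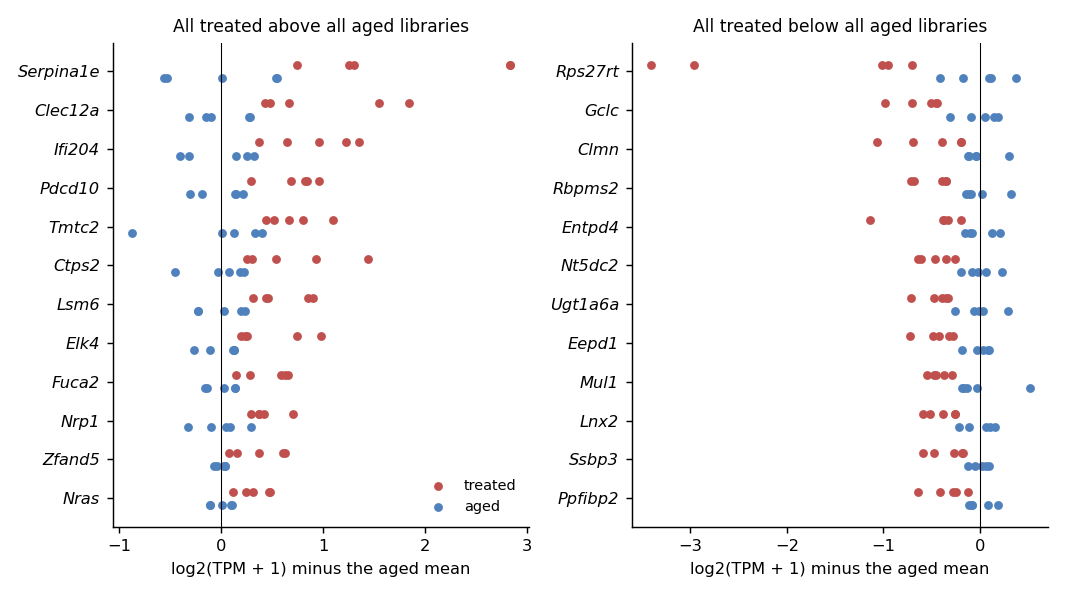
Each row is 1 of the 24 named genes whose treated and aged libraries do not overlap, and each point is a library, treated above aged. The horizontal axis is log2(TPM + 1) minus the mean of the aged libraries. In most rows the nearest treated and aged points lie close together, and Serpina1e and Rps27rt, both with near-identical copies, have the widest spread.

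Of the panel of senescence genes, Cdkn2a, which encodes p16 and Arf, stood at 1.47, 5.49, 2.47, 4.63 and 14.8 TPM in treated livers, against 2.97, 3.27, 3.18, 4.01 and 14.6 TPM in aged livers. In each group library 5 held far more than the others, and the groups overlap throughout. The log2 difference was −0.03 with a 95% interval of −0.96 to 0.90, so a change of up to about 1 log2 unit in either direction is within the error. It was −0.41 without treated 5, 0.25 without treated 1 and 0.34 without aged 5. Cdkn2b, the p15 inhibitor next to it, lay under the filter at 0.52 to 0.69 TPM in treated and 0.22 to 0.88 TPM in aged livers.

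Cdkn1a, which encodes p21, stood at 10.8, 16.6, 39.3, 26.2 and 29.5 TPM in treated and 30.3, 17.6, 19.6, 20.8 and 12.3 TPM in aged livers (log2 difference 0.20, 95% interval −0.65 to 1.05). Trp53 averaged 17.7 ± 2.73 TPM in treated livers and 22.5 ± 6.94 TPM in aged livers (−0.30, 95% interval −0.74 to 0.14). Glb1, the lysosomal galactosidase behind the usual senescence stain, averaged 10.3 ± 1.7 TPM in treated livers and 10.6 ± 1.27 TPM in aged livers (−0.05, −0.43 to 0.33). Lmnb1, a nuclear lamina gene that falls in senescent cells, stood at 1.64, 3.7, 3.19, 3.23 and 2.27 TPM in treated and 2.78, 2, 3.98, 3.23 and 13.2 TPM in aged livers (−0.45, −1.15 to 0.26). The high aged value was that of aged 5, and without it the difference was −0.08. Gdf15, a stress cytokine gene, averaged 8.47 ± 3.28 TPM in treated livers and 9.25 ± 0.987 TPM in aged livers (−0.19, −0.91 to 0.53). Of the 6 tested genes none was called by limma and none had an unadjusted p under 0.05. Their adjusted p ranged from 0.925 to 0.996.

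Gene lists were read by counts. Each list is given with its tested members, how many had higher means in treated livers, and the median difference, to be set beside 49.7% and 0.00 over all genes. Most medians are followed by a left-out range, the lowest and highest median with any 1 of the 15 libraries left out, and for the others the libraries that moved them most are named. Values in brackets after a gene are log2 differences, treated minus aged, and group means are given ± SD (n = 5 each). Every gene named from the lists had a limma adjusted p of 0.925 or more. The lists hold 1135 tested genes in all. Members under the filter were left out, and of some lists many were. Tested were, for instance, 12 of 22 neutrophil markers, 20 of 34 T and NK cell markers and 36 of 50 secreted factors. No list member was called by limma, while 52 (4.58%) had an unadjusted p under 0.05 with higher and 35 (3.08%) with lower means in treated livers, where all tested genes gave 3.0% and 1.41%. The lists were chosen with earlier results of these data known. Of the 37 lists, 21 had a median above 0. In bulk tissue a lower or higher level of a cell type's genes can come from the number of cells or from the RNA per cell, and these cannot be told apart here.

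Among 23 cell cycle inhibitors and p53 targets, 12 had higher means and the median was 0.03 (left-out range −0.09 to 0.11). Mdm2, the p53 antagonist and target, averaged 7.56 ± 3.19 TPM in treated livers and 5.6 ± 1.15 TPM in aged livers (0.31). Cdkn1c, which encodes p57, stood at 3.33 ± 1.8 TPM in treated and 4.06 ± 1.09 TPM in aged livers (−0.27), and the p53 target Ptp4a3 at 12 ± 4.14 TPM in treated and 15.9 ± 5.39 TPM in aged livers (−0.40). Of the cell cycle genes, 15 of 29 had higher means (median 0.06, left-out range −0.12 to 0.27), and the thymidine kinase gene Tk1 averaged 26.8 ± 9.61 TPM in treated and 29.8 ± 2.86 TPM in aged livers (−0.24). In the lysosomal list 18 of 48 had higher means, with a median of −0.04 (left-out range −0.07 to 0.04). In it the ceramidase gene Asah1 stood at 18.0, 22.9, 22.9, 23.2 and 29.9 TPM in treated and 15.9, 18.8, 16.2, 17.7 and 21.4 TPM in aged livers (0.35), and Ctss, a protease of antigen-presenting cells, at 106 ± 43 TPM in treated and 63.7 ± 37 TPM in aged livers (0.76). In the BCL2 family and cell death list, 22 of 30 had higher means (median 0.08, left-out range 0.03 to 0.19), among them the necroptosis effector Mlkl at 5.39 ± 1.37 TPM in treated and 3.79 ± 0.663 TPM in aged livers (0.40), the BCL2-related gene Bcl2a1b at 8.67 ± 4.77 TPM in treated and 4.19 ± 3.05 TPM in aged livers (0.88) and the BH3-only gene Bik at 2.25 ± 0.769 TPM in treated and 1.38 ± 0.318 TPM in aged livers (0.43).

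Secreted factors of senescent cells had higher means for 26 of 36 members, with a median of 0.15. At an unadjusted limma p under 0.05, 5 were higher and 1 was lower. Mmp12, the macrophage elastase, stood at 1.24, 0.96, 1.42, 8.7 and 5.38 TPM in treated livers and 0.25, 0.73, 0.7, 0.85 and 0.48 TPM in aged livers, and the groups do not overlap (1.21, 95% interval 0.44 to 1.97). Treated 4 and 5 carried its high values. Mmp12 averaged 0.602 TPM in aged and 0.176 TPM in young livers, so it met the filter only through the treated group. Genes that enter in this way tend to have a higher mean in treated livers. Ccl6, a chemokine of myeloid cells, stood at 12.7, 27.5, 25.2, 24.4 and 52.7 TPM in treated and 9.08, 10.1, 12.8, 10.8 and 20.9 TPM in aged livers (1.03, 95% interval 0.36 to 1.69). Cxcl1, which attracts neutrophils, averaged 13.3 ± 8.08 TPM in treated livers and 4.43 ± 4.56 TPM in aged livers (1.39), with treated 1 at 1.97 TPM inside the range of aged 1 to 4. Igfbp5, a binding protein of insulin-like growth factors, was the lower one at 4.21 ± 2.27 TPM in treated and 6.89 ± 0.927 TPM in aged livers (−0.69). Without treated 1 the median of the list was 0.32, and without treated 5 it was 0.06.

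Of 60 tested interferon-stimulated genes, 59 had higher means in treated livers, with a median of 0.41. At an unadjusted limma p under 0.05, 13 were higher and 0 lower, where all tested genes gave 3.0% and 1.41%. In 1 member all treated libraries were higher without overlap, which held for 0.403% of all tested genes. The mean over the list on the log2(TPM + 1) scale was 3.03, 4.32, 3.83, 3.50 and 3.94 in treated livers 1 to 5 and 3.0, 3.04, 3.39, 3.46 and 3.56 in aged livers 1 to 5. Treated 2, 3 and 5 thus lay above all aged libraries, treated 4 lay within the aged range, and treated 1 was near its lower end. The young libraries ranged from 2.70 to 3.53. The median was 0.27 without treated 2 and 0.61 without treated 1, and 0.26 with a pseudocount of 5.

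Oas1g, an antiviral oligoadenylate synthetase, stood at 1.41, 5.14, 5.21, 1.6 and 3.31 TPM in treated and 0.84, 0.29, 1.66, 0.67 and 1.46 TPM in aged livers (log2 difference 1.06, 95% interval 0.45 to 1.67). Treated 1 and 4 lay within the aged range. It shares sequence with Oas1a, and the pair summed to 11.3 ± 4.24 TPM in treated and 6.29 ± 2.27 TPM in aged livers. Gbp3, a guanylate-binding protein of cell-autonomous defence, stood at 6.06, 15.4, 7.74, 4.48 and 10.6 TPM in treated and 2.78, 3.63, 3.72, 5.4 and 4.11 TPM in aged livers (0.91, 95% interval 0.33 to 1.5), and treated 4 was below aged 4. Herc6, the mouse ligase for the ubiquitin-like protein Isg15, averaged 3.86 ± 0.952 TPM in treated livers and 2.01 ± 0.505 TPM in aged livers (0.69) without overlap, and Rtp4, an interferon-induced receptor transporter protein, averaged 26.4 ± 8.79 TPM in treated livers and 16.2 ± 2.89 TPM in aged livers (0.63).

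The promoters printed above show the motif in the members of this list with the smallest p. Of the 60 tested interferon-stimulated genes, 43 had a promoter in the RefSeq table, and 26 of these (60.5%) held GAAANNGAAA or TTTCNNTTTC on either strand. Among all 8909 tested genes with a promoter 344 held it (3.86%), and so did 1079 (3.99%) of all 27025 genes with a RefSeq promoter. The motif was not found in the Herc6 window. A match describes letters and is not a measured binding site.

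Of 24 genes of MHC class I and the immunoproteasome, 21 had higher means, with a median of 0.11. It was 0.01 without treated 2 and 0.26 without treated 1. Nlrc5, the transactivator of class I genes, averaged 7.88 ± 6 TPM in treated livers and 4.35 ± 2.02 TPM in aged livers (0.53), the proteasome gene Psmb10 67.3 ± 18.2 TPM in treated and 55.7 ± 13.6 TPM in aged livers (0.25), and H2-Q10, a secreted class I molecule of liver, 1592 ± 75.6 TPM in treated and 1722 ± 61 TPM in aged livers (−0.11). For MHC class II, 7 of 11 members lay higher on average and the median was 0.12. Its sign depended on single libraries, with −0.06 without aged 4, 0.50 without treated 1 and 0.53 without aged 5. H2-Aa, a class II chain, stood at 46.5, 219, 143, 151 and 177 TPM in treated and 58.6, 122, 88.6, 63.5 and 346 TPM in aged livers (0.29), with aged 5 the highest of the 10 libraries and treated 1 the lowest. H2-Oa, part of a class II chaperone of B cells, averaged 1.85 ± 0.761 TPM in treated livers and 3.69 ± 4.77 TPM in aged livers (−0.35), with aged 5 at 12.2 TPM.

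Markers of macrophages and neutrophils mostly had higher means in treated livers, with none called. For monocytes and macrophages, 28 of 30 had higher means (median 0.47), and 7 had an unadjusted limma p under 0.05, all of them higher. The mean of the list was 2.98, 4.14, 3.91, 4.06 and 4.89 in treated livers 1 to 5 and 3.23, 3.35, 3.47, 3.29 and 4.16 in aged livers 1 to 5. Treated 5 was the highest of the 10 libraries and treated 1 the lowest, and aged 5 stood above the other aged libraries. Without treated 1 the median was 0.77, and without treated 5 it was 0.31. The most abundant marker, the lysozyme gene Lyz2, stood at 124, 277, 203, 271 and 749 TPM in treated and 167, 205, 200.4, 158 and 561 TPM in aged livers (0.24). The adaptor gene Tyrobp averaged 118 ± 79.9 TPM in treated livers and 74.3 ± 20.9 TPM in aged livers (0.44). Fcgr1, a receptor for antibodies, stood at 3.64, 10.7, 7.68, 5.64 and 16.0 TPM in treated and 3.54, 2.17, 5.43, 2.92 and 6.5 TPM in aged livers (0.86), and Ms4a6d at 7 ± 5.05 TPM in treated and 2.91 ± 1.22 TPM in aged livers (0.85). Trem2, a lipid receptor of macrophages, averaged 8.45 ± 3.35 TPM in treated livers and 4.73 ± 1.53 TPM in aged livers (0.69).

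Kupffer cell markers had higher means for 15 of 19 members, with a median of 0.48 and 4 at an unadjusted limma p under 0.05, all higher. The list mean was 4.35, 5.46, 4.96, 5.17 and 6.08 in treated livers 1 to 5 and 4.58, 4.50, 5.08, 4.78 and 4.96 in aged livers 1 to 5, so that treated 2, 4 and 5 lay above all aged libraries and treated 1 below all of them. The fatty acid binding protein gene Fabp7 stood at 5.31, 9.39, 7.56, 5.65 and 10.9 TPM in treated and 1.77, 3.25, 2.62, 2.15 and 5.8 TPM in aged livers (1.12, 95% interval 0.44 to 1.80). Clec1b, a lectin receptor, stood at 9.82, 26.2, 15.8, 12.6 and 31.4 TPM in treated and 6.98, 9.01, 9.64, 13.7 and 9.39 TPM in aged livers (0.81). Vsig4, a complement receptor that marks Kupffer cells, averaged 84 ± 39.5 TPM in treated livers and 48.4 ± 13.5 TPM in aged livers (0.71) and the Kupffer cell lectin Clec4f 194 ± 78.5 TPM in treated and 125 ± 24.2 TPM in aged livers (0.55). The complement genes C1qa and C1qb, the most abundant of the list, averaged 242 ± 132 TPM in treated and 168 ± 57.8 TPM in aged livers (0.38) and 223 ± 124 TPM in treated and 151 ± 49.6 TPM in aged livers (0.41). The Kupffer median was 0.77 without treated 1 and 0.20 without treated 5.

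All 12 tested neutrophil markers had higher means in treated livers, with a median of 0.64, and 3 had an unadjusted limma p under 0.05. Prtn3, a granule protease, stood at 2.85, 38.9, 19.6, 40.0 and 177 TPM in treated and 0.98, 1.03, 4.27, 3.41 and 23.5 TPM in aged livers (2.66, 95% interval 0.33 to 4.99). Its values ranged widely in both groups, with library 5 the highest of each. S100a8, a calcium-binding protein of neutrophils, stood at 3.47, 14.4, 5.42, 5.4 and 25.1 TPM in treated and 1.98, 4.01, 5.42, 2.93 and 4.6 TPM in aged livers (1.03). Retnlg averaged 3.32 ± 1.06 TPM in treated livers and 1.93 ± 0.979 TPM in aged livers (0.58) and Csf3r, the receptor of the growth factor G-CSF, 2.66 ± 1.05 TPM in treated and 1.63 ± 0.726 TPM in aged livers (0.47). Lcn2, which hepatocytes also make in inflammation, stood at 37.0, 86.1, 199, 712 and 1963 TPM in treated and 68.4, 26.0, 63.3, 74.0 and 1122 TPM in aged livers (1.30). Their median was 0.41 without treated 5 and 0.85 without treated 1. The list mean was 1.82, 3.27, 2.96, 3.0 and 4.37 in treated livers 1 to 5 and 1.96, 1.99, 2.48, 2.04 and 2.92 in aged livers 1 to 5.

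Lymphocyte genes varied widely between libraries of the same group. T and NK cell markers had higher means for 14 of 20 members (median 0.24), and 3 had an unadjusted limma p under 0.05, all higher. The list mean was 1.10, 2.56, 2.64, 2.45 and 2.36 in treated livers 1 to 5 and 1.20, 2.39, 1.56, 1.26 and 3.43 in aged livers 1 to 5. Klrk1, an activating receptor of NK cells, averaged 2.33 ± 1.06 TPM in treated livers and 1.2 ± 0.232 TPM in aged livers (0.54), the granzyme genes Gzmb and Gzma 4.05 ± 2.46 TPM in treated and 1.79 ± 1.34 TPM in aged livers (0.80) and 3.51 ± 3.44 TPM in treated and 1.15 ± 0.485 TPM in aged livers (0.79), and the T cell receptor gene Trbc1 4.31 ± 2.05 TPM in treated and 3.62 ± 5.26 TPM in aged livers (0.64). Ccl5 and Zap70, the most abundant members, averaged 61.1 ± 32.9 TPM in treated and 69.8 ± 89.7 TPM in aged livers (0.21) and 12.6 ± 2.35 TPM in treated and 13.2 ± 3 TPM in aged livers (−0.05). The T and NK median was −0.02 without aged 4, 0.50 without treated 1 and 0.66 without aged 5.

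B and plasma cell markers had higher means for 6 of 25 members, with a median of −0.25. Averaged over these markers, the level was 2.24, 3.57, 3.05, 4.86 and 2.71 in treated livers 1 to 5 and 2.39, 3.93, 2.70, 2.85 and 5.89 in aged livers 1 to 5. The constant-region gene Ighg2c stood at 3.94, 4.22, 6.43, 56.9 and 0.79 TPM in treated and 2.44, 52.9, 11, 3.8 and 179.9 TPM in aged livers (−1.32, 95% interval −3.63 to 0.99), with treated 4, aged 2 and aged 5 far above the rest. Igkc, the light chain gene, stood at 114, 873, 246, 2852 and 337 TPM in treated and 378, 1241, 272, 264 and 3654 TPM in aged livers (−0.48). Ighm averaged 604 ± 866 TPM in treated livers and 465 ± 398 TPM in aged livers. The median of this list was −0.63 without treated 4, 0.04 without treated 1 and 0.35 without aged 5. Sdc1, a plasma cell marker that hepatocytes also express, was the member with an unadjusted p under 0.05, at 102, 139, 162, 188 and 166 TPM in treated and 193, 151, 279, 257 and 241 TPM in aged livers (−0.56).

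Treated 1 was the lowest treated library in the interferon, macrophage, Kupffer, neutrophil and acute-phase lists. This was not particular to them. It was also the lowest for hepatocyte markers, drug metabolism genes and ribosomal proteins, and for 53.6% of tested genes. In the major urinary protein list it was the highest. The part that immune cell number has in the interferon-stimulated genes was not tested.

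**Figure D4:**
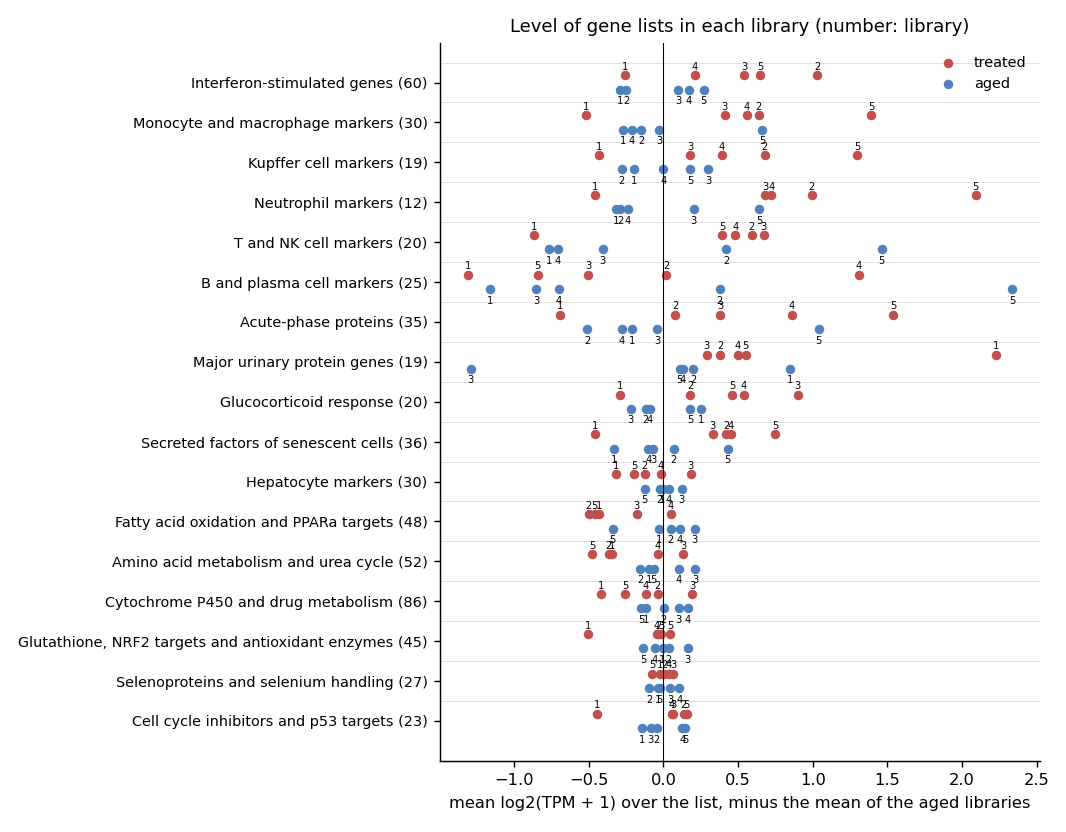
For 17 gene lists (number of tested members in brackets), each point is the mean log2(TPM + 1) over the list in 1 library, minus the mean of the 5 aged libraries, with treated above aged and the library number beside the point. In the interferon, macrophage and neutrophil lists most treated libraries lie to the right of most aged ones, with treated 1 at the left, while B and plasma cell markers spread widely in both groups.

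Acute-phase proteins, which hepatocytes secrete in inflammation, had higher means for 30 of 35 members, with a median of 0.37. Averaged over the list, the level was 7.23, 8.0, 8.30, 8.78 and 9.46 in treated livers 1 to 5 and 7.71, 7.41, 7.88, 7.64 and 8.96 in aged livers 1 to 5. Apcs, serum amyloid P, stood at 191, 302, 287, 338 and 961 TPM in treated and 121, 139.7, 147, 205 and 317 TPM in aged livers (1.01, 95% interval 0.15 to 1.87), and ceruloplasmin, Cp, at 2309, 1367, 743, 805 and 1399 TPM in treated and 1155, 548, 533, 804 and 934 TPM in aged livers (0.68). The list also holds the interleukin-1 receptor gene Il1r1, which does not itself encode an acute-phase protein. Il1r1 did not overlap, at 3.02, 4.25, 6.84, 2.58 and 4.7 TPM in treated and 2.33, 1.52, 2.39, 2.18 and 2.41 TPM in aged livers (0.69). Without treated 5 the median of the list was 0.14, and without aged 5 it was 0.53. For complement and coagulation, 28 of 43 had higher means and the median was 0.10 (left-out range 0.08 to 0.18). The coagulation factor gene F11 averaged 21.2 ± 5.34 TPM in treated livers and 14 ± 3.56 TPM in aged livers (0.57), and the complement gene Hc 286 ± 27.2 TPM in treated and 226 ± 42.8 TPM in aged livers (0.35).

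Among 20 genes of the glucocorticoid response, 17 had higher means, with a median of 0.27, which was 0.10 without treated 3 and 0.31 without treated 1. Zbtb16, a transcription factor gene induced by glucocorticoids, stood at 4.56, 1.9, 7.51, 4.26 and 4.73 TPM in treated livers, against 1.05, 0.85, 0.96, 1.28 and 1.17 TPM in aged livers. Every treated library lay above every aged one, and the aged values were close together. The log2 difference was 1.36 (SE 0.33, 95% interval 0.67 to 2.05, limma adjusted p = 0.925). Young livers stood at 2.95 ± 2.05 TPM. Other targets were nearer to level, with Fkbp5, a chaperone of the receptor, at 18.3 ± 2.86 TPM in treated and 14.5 ± 2.69 TPM in aged livers (0.32) and the transcription factor gene Klf9 at 9.58 ± 2.24 TPM in treated and 7.39 ± 2.11 TPM in aged livers (0.35). Dusp1, a phosphatase of MAP kinases, stood at 12.6, 28.5, 48.4, 19.6 and 13.7 TPM in treated and 12.6, 8.01, 12.4, 15.2 and 9.36 TPM in aged livers (0.89).

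Of 24 immediate early genes 15 lay higher on average (median 0.05). That median was −0.05 without aged 4 and 0.31 without treated 1. Fos stood at 0.84, 2.58, 2.38, 4.96 and 1.58 TPM in treated and 0.66, 1.15, 0.67, 0.63 and 0.96 TPM in aged livers (0.83, 95% interval 0.27 to 1.40), treated 1 alone lying in the aged range. It averaged 0.814 TPM in aged and 0.944 TPM in young livers, so Fos too met the filter only through the treated group. Gadd45g, a stress gene, stood at 6.94, 42.0, 58.9, 20.8 and 24.5 TPM in treated and 8.32, 8.35, 11.7, 9.11 and 7.13 TPM in aged livers (1.39, 95% interval 0.45 to 2.34), with treated 1 below all aged libraries and the other 4 treated ones above them. Clock genes had higher means for 6 of 22 members, with a median of −0.11 (left-out range −0.22 to −0.06). Among them the repressor gene Cry1 averaged 4.58 ± 0.782 TPM in treated livers and 7.52 ± 3.35 TPM in aged livers (−0.52). The labels give no time of day.

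Major urinary protein genes, whose products carry pheromones, had higher means for 18 of 19 members and a median of 0.77. Treated 1 was by far the highest library. Mup2 stood at 1127, 77.6, 46.2, 51.3 and 70.9 TPM in treated and 89.6, 41.5, 6.9, 33.7 and 42.6 TPM in aged livers (1.68, 95% interval −0.33 to 3.69), and Mup8 at 211, 50.7, 38.3, 33.9 and 39.5 TPM in treated and 59.2, 25.3, 7.37, 13.7 and 20.9 TPM in aged livers (1.43). Mup1 and Mup16 were highest in treated 1 as well, at 641.1 and 3184 TPM. Without treated 1 the median was 0.41, without aged 3 it was 0.47, and without aged 1 it was 1.01. These genes are near-identical copies, and none had an unadjusted p under 0.05.

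Genes of hepatocyte metabolism mostly had slightly lower means in treated livers, with none called. Of 48 genes of fatty acid oxidation and PPARα targets, 43 had lower means, with a median of −0.29, and 9 had an unadjusted limma p under 0.05, all of them lower. Acaa1b, a peroxisomal thiolase, stood at 157, 269, 449, 379.5 and 197 TPM in treated livers, against 526, 597, 785, 710.3 and 349.6 TPM in aged livers. Aged 5 lay within the treated range and the other aged libraries above it. The log2 difference was −1.08 (SE 0.29, 95% interval −1.69 to −0.48). Cyp4a10, a fatty acid hydroxylase and classical PPARα target, stood at 138, 66.9, 186, 223 and 134 TPM in treated and 211, 244, 217, 359.6 and 195 TPM in aged livers (−0.78). Ehhadh, an enzyme of peroxisomal oxidation, averaged 105 ± 31.7 TPM in treated livers and 159 ± 38.3 TPM in aged livers (−0.60) and Acaa2, a mitochondrial thiolase, 521 ± 101 TPM in treated and 662 ± 67.8 TPM in aged livers (−0.36). The list mean was 6.10, 6.03, 6.35, 6.58 and 6.07 in treated livers 1 to 5 and 6.50, 6.58, 6.74, 6.64 and 6.19 in aged livers 1 to 5, and the median stayed between −0.37 and −0.23 in all 30 alternative fits.

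Amino acid metabolism and the urea cycle had lower means for 45 of 52 genes, with a median of −0.24 (left-out range −0.30 to −0.16) and 5 lower at an unadjusted limma p under 0.05. Ahcy, which clears S-adenosylhomocysteine, stood at 806, 802, 958, 1096 and 702 TPM in treated and 1174, 1199, 1424, 1118 and 949 TPM in aged livers (−0.43, 95% interval −0.75 to −0.11). Treated 3 and 4 lay in the aged range. Got2, the mitochondrial aspartate aminotransferase, stood at 231, 206, 263, 323 and 227 TPM in treated and 331, 297, 393, 352 and 315 TPM in aged livers (−0.44). Sardh, sarcosine dehydrogenase, averaged 339 ± 75.8 TPM in treated livers and 463 ± 45.7 TPM in aged livers (−0.47) and Uroc1, of histidine breakdown, 142 ± 27.1 TPM in treated and 190 ± 35.1 TPM in aged livers (−0.41). Young livers averaged 1519 ± 218 TPM of Ahcy and 537 ± 136 TPM of Acaa1b.

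Of 86 cytochrome P450 and other drug metabolism genes, 53 had lower means, with a median of −0.13 (left-out range −0.20 to −0.05), 8 lower and 1 higher at an unadjusted limma p under 0.05. The carboxylesterase gene Ces1e averaged 79.1 ± 21.3 TPM in treated livers and 113 ± 19.8 TPM in aged livers (−0.53), Cyp2b10, a target of the receptor CAR, 33.6 ± 9.87 TPM in treated and 52.4 ± 14 TPM in aged livers (−0.63) and Ugt1a6b 34.4 ± 9.03 TPM in treated and 49.6 ± 8.16 TPM in aged livers (−0.54). The higher one was Cyp2c70, which makes the muricholic acids of mouse bile, at 918, 664, 602, 425 and 722 TPM in treated and 491, 331, 453, 611 and 409 TPM in aged livers (0.52). Bile acid genes were even, with 17 of 30 lower and a median of −0.03 (left-out range −0.10 to 0.08).

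In the list of glutathione, NRF2 targets and antioxidant enzymes, 35 of 45 had lower means and the median was −0.17 (left-out range −0.21 to −0.09, the least negative without treated 1). Beside Gclc, the epoxide hydrolase gene Ephx1 stood at 168 ± 46.2 TPM in treated and 252 ± 52.8 TPM in aged livers (−0.61) and the efflux pump gene Abcc4 at 2.21 ± 0.678 TPM in treated and 3.39 ± 0.682 TPM in aged livers (−0.46). Prdx1, a peroxiredoxin that is itself an NRF2 target, lay the other way at 961, 910.2, 880.0, 601 and 959.8 TPM in treated and 542, 613, 623, 683 and 505 TPM in aged livers (0.53, 95% interval 0.18 to 0.87). All treated libraries but treated 4 lay above every aged one.

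Selenoproteins and genes of selenium handling showed no common direction. Of 27 tested, 12 had higher and 15 lower means, with a median of −0.06 (left-out range −0.12 to −0.01). Selenos, a membrane protein of the endoplasmic reticulum, stood at 62.8, 72.2, 71.5, 52.9 and 98.1 TPM in treated and 44.4, 40.0, 47.4, 63.4 and 62.0 TPM in aged livers (0.46), and Selenok, of the same compartment, at 127, 181, 173, 118 and 242 TPM in treated and 87.9, 129.5, 109, 111 and 114 TPM in aged livers (0.57). Selenbp1, a selenium-binding protein that is not a selenoprotein, averaged 284 ± 70.5 TPM in treated livers and 376 ± 53.7 TPM in aged livers (−0.43) and Sephs2, the selenophosphate synthetase, 275 ± 49.1 TPM in treated and 331 ± 41.9 TPM in aged livers (−0.27). The list mean was 5.67 ± 0.05 in treated and 5.67 ± 0.08 in aged livers (SD, n = 5 each).

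Of the 37 genes of the unfolded protein response and heat shock, 25 had higher means, with a median of 0.10 (left-out range 0.03 to 0.21). Hsp90b1, the chaperone GRP94 of the endoplasmic reticulum, stood at 270.2, 258, 266, 197 and 525 TPM in treated and 156, 149, 134, 257 and 239 TPM in aged livers (0.66), and Pdia3 and Pdia6, disulfide isomerases, averaged 210 ± 60.1 TPM in treated and 156 ± 47.8 TPM in aged livers (0.44) and 176 ± 51.4 TPM in treated and 130 ± 38.4 TPM in aged livers (0.44). These 3 genes were highest in treated 5. The cytosolic chaperone gene Hsp90ab1 lay the other way at 443 ± 20.7 TPM in treated and 537 ± 89.9 TPM in aged livers (−0.26).

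Energy metabolism showed small differences. Glucose production, glycolysis and glycogen had lower means for 25 of 34 genes (median −0.13, left-out range −0.21 to −0.07), with Gapdh at 1706 ± 210 TPM in treated and 2228 ± 295 TPM in aged livers (−0.38) and the enolase gene Eno1 at 284 ± 23.8 TPM in treated and 373 ± 54 TPM in aged livers (−0.38). Nuclear-encoded genes of oxidative phosphorylation had lower means for 38 of 55 (median −0.12, left-out range −0.16 to −0.04, the least negative without treated 1). Ndufa10, a complex I subunit, was the one without overlap, at 76.8, 70.1, 85.1, 89.2 and 74.0 TPM in treated and 91.6, 90.2, 96.7, 98.9 and 92.2 TPM in aged livers (−0.25). The mitochondrially encoded genes went the other way in their means, with 11 of 13 higher and a median of 0.15 (left-out range 0.08 to 0.23). Cholesterol and fatty acid synthesis (median −0.04 over 50 genes, left-out range −0.12 to 0.00) and cytosolic ribosomal proteins (−0.06 over 79, left-out range −0.10 to 0.06, above 0 without treated 1) lay near 0. Ebp, of cholesterol synthesis, averaged 271 ± 55.1 TPM in treated livers and 351 ± 44.5 TPM in aged livers (−0.39).

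Hepatocyte markers had lower means for 22 of 30 genes, with a median of −0.10 (left-out range −0.18 to −0.05). Alb, the most abundant, stood at 83923, 72429.5, 58768, 43379 and 47771 TPM in treated and 78229, 67204, 61749.9, 67886 and 43300.3 TPM in aged livers (−0.07, 95% interval −0.51 to 0.36), and Apoe averaged 35645 ± 4109 TPM in treated livers and 43210 ± 3546 TPM in aged livers (−0.28). Hpd, an enzyme of tyrosine breakdown, averaged 2119 ± 591 TPM in treated and 2725 ± 367 TPM in aged livers (−0.40). Both groups thus carry the defining genes of liver at high levels. Sinusoidal endothelial markers (median −0.08 over 27 genes, left-out range −0.21 to 0.05), stellate cell and matrix genes (0.05 over 35, −0.03 to 0.10), bile duct cell markers (0.01 over 11, −0.10 to 0.09) and red cell genes (0.07 over 10, −0.07 to 0.23) lay near 0. In them the mannose receptor gene Mrc1 stood at 11.2, 13.4, 12.7, 13.7 and 15.4 TPM in treated and 7.9, 6.43, 10.7, 14.4 and 8.05 TPM in aged livers (0.48). The endothelial receptor genes Tie1 and Flt1 lay the other way, averaging 3.65 ± 1.79 TPM in treated and 4.55 ± 1.37 TPM in aged livers (−0.30) and 1.39 ± 0.459 TPM in treated and 1.74 ± 0.594 TPM in aged livers (−0.19). Of the stellate cell and matrix genes, 1 had higher and 1 lower means at an unadjusted limma p under 0.05. Des, the muscle and stellate cell filament desmin, was the lower one at 2.24, 3.36, 3.31, 3.68 and 2.79 TPM in treated and 2.76, 10.2, 3.15, 6.53 and 6.72 TPM in aged livers (−0.65, 95% interval −1.22 to −0.08), highest in aged 2, 4 and 5. The matrix proteoglycan gene Lum was the higher one and did not overlap, at 4.19, 4.57, 4.74, 4.84 and 5.9 TPM in treated and 2.13, 3.39, 2.34, 3.55 and 2.88 TPM in aged livers (0.61, 95% interval 0.14 to 1.08).

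Genes of other tissues set 2 aged libraries apart. Acta1, the actin of skeletal muscle, stood at 0.94, 0.23, 1.11, 0.61 and 1.17 TPM in treated livers and 0.14, 131, 0.6, 52.5 and 1.45 TPM in aged livers. Tnnt3, a troponin of fast muscle, stood at 0, 0.06, 0.23, 0 and 0.06 TPM in treated and 0, 87.8, 0, 34.5 and 0 TPM in aged livers, and Ckm, muscle creatine kinase, at 0.18, 0.13, 0.11, 0 and 0.34 TPM in treated and 0, 57.4, 0, 14.6 and 0.3 TPM in aged livers. Aged 2 and aged 4 held these genes, and no other library of both groups held more than 1.45 TPM of any of the 3. Mylpf, a myosin light chain gene, was highest in the same libraries, at 1.52, 2.92, 4.59, 1.81 and 2.04 TPM in treated and 3.63, 54.9, 8.16, 17.8 and 3.54 TPM in aged livers. The list of fat, muscle, pancreas and mesothelium holds 25 genes, of which 8 met the filter and were tested. Acta1, Tnnt3 and Ckm met it only through aged 2 and aged 4, so these libraries also decided which members were tested. The median over the 8 was −1.28, which follows in part from this choice, and without aged 2 and aged 4 it was 0.08 over the same genes. The mean of that list was 2.18, 2.18, 2.52, 2.39 and 2.20 in treated livers 1 to 5 and 2.30, 5.54, 2.48, 4.66 and 2.41 in aged livers 1 to 5. Car3, an enzyme of muscle and fat that hepatocytes also make, stood at 552, 636, 1289, 928 and 477 TPM in treated and 992, 1280.0, 1180.1, 2047 and 1108 TPM in aged livers (−0.82). The fatty acid oxidation median was −0.23 without these 2 libraries, and the interferon median 0.39. Pancreatic enzyme genes other than Cela1 stood at no more than 0.49 TPM in all 10 libraries, and Cela1 averaged 23.8 ± 2.42 TPM in treated livers and 23.7 ± 1.87 TPM in aged livers.

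**Figure D5:**
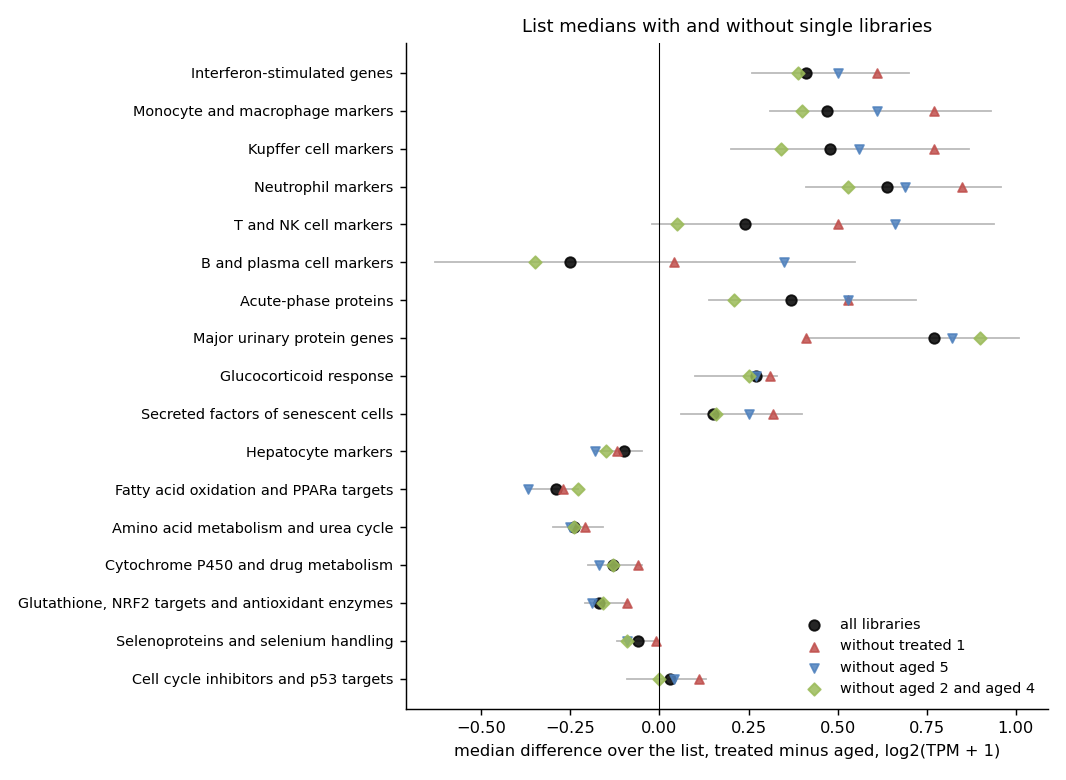
Median difference between treated and aged livers over each of 17 gene lists, on the log2(TPM + 1) scale, with all libraries (circles), without treated 1 (triangles up), without aged 5 (triangles down) and without aged 2 and aged 4 (diamonds). Grey lines span all 30 alternative fits. The interferon, macrophage, Kupffer and neutrophil medians are on the right of 0 and the fatty acid oxidation and amino acid medians on the left of 0 under each, while the B and plasma cell median crosses 0.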

How the data were processed

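Total RNA of mouse liver was sequenced, and the submitters' processing notes name fastp, HISAT, RSEM and the build GRCm39. How each was used, and its version and settings, are not given in the sources used here. The authors deposited TPM to 2 decimals for 55849 gene rows in 15 library columns. Because TPM does not preserve read numbers, library depth is unknown and no counting interval was computed. Zeros are given as listed. All library columns matched a sample, and 3 columns of the authors' group means were not used.

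Genes averaging 1 TPM or more were analysed on log2(TPM + 1), which understates the change of low genes. All 3 groups were fitted together in limma 3.58.1 (R 4.3.3), with an intensity trend and robust variance moderation, and p-values were adjusted over 12168 genes by the Benjamini-Hochberg method. The model was tested on simulated data that held no library-wide differences, and the outcome is not reported here. Library features were compared by exact permutation over the 252 splits of 5 against 5 (scipy 1.17.1, smallest possible p 0.00794). The comparison, the gene lists (37, 1300 symbols, 1288 in the table) and the rules were chosen with earlier results of these data known.

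Named genes are every called gene, a panel of 8 senescence genes, the 12 smallest p per direction among genes whose groups do not overlap, with a group mean of at least 5 TPM and no predicted gene or variable segment, up to 4 members of each list described by smallest p, and the 2 most abundant members of the cell type lists described in detail. Gene models were compared by exact match of the GENCODE M21 transcripts (GRCm38), and promoters come from RefSeq (GRCm38.p6). Coordinates are given for these promoters only, on their own build. Some genes that this rule names are not reported here. The closing section gives the effect of other pseudocounts (0.1 and 5), filters, scalings, weights and left-out libraries.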

Additional observations from a re-analysis of the deposited data

Results flagged for a closer look

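In 17 of 144 checks of a group's 5 libraries, 1 library stood far from the other 4, by Dixon's ratio with a critical value of 0.71. For independent normal values this gives about 1 in 20 groups. The checks share libraries and list members, and genes such as Nrp1 and Clmn were named because their groups do not overlap. The 17 can therefore not be set against that rate. Treated 1 accounts for 8, aged 5 for 5, treated 2 for 2 and aged 3 for 2. Treated 1 was the lowest of its group for the mean log2 level of cell cycle inhibitors and p53 targets (2.83), MHC class II presentation (3.43), complement and coagulation (6.67), T and NK cell markers (1.10), cytosolic ribosomal proteins (8.16), antioxidant enzymes (6.52) and immediate early genes (2.21). It was the highest for the major urinary protein genes (10.03).

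Aged 5 was the highest of its group for Cdkn2a (14.59 TPM), Lmnb1 (13.16 TPM), monocyte and macrophage markers (4.16), cell cycle genes (3.54) and immediate early genes (2.94), the lists again as mean log2 level. Treated 2 was the highest of its group for Nrp1 (47.17 TPM) and the lowest for Entpd4 (7.27 TPM). Aged 3 was the highest of its group for Clmn (13.46 TPM) and Mul1 (20.11 TPM).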

How the results depend on the processing

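Gm42605 was called in all fits that tested it alone. It drops out under a filter at 5 TPM, where 0 genes were called, and summed with its identical models it stood at 0.13 (same strand) or 0.17 (either strand) with 0 genes called. These sums, and the fits without several libraries, were chosen after seeing the data. Leaving out single libraries gave 1 to 2 called genes, with Epha5 added without treated 5 (limma adjusted p = 0.0296) and Ighv1-22 without aged 3 (0.036), and 265 to 990 genes at an unadjusted p under 0.05, 152 to 664 higher and 79 to 392 lower. The total was 1234 without a filter (892 higher, 342 lower), 280 with the filter at 5 TPM (163 higher), 807 after quantile normalization (417 lower), 863 in treated and aged libraries only (371 lower) and 2026 with library weights (1523 higher, 503 lower). With median-ratio scaling 355 were lower. Without young 4, aged 5 and treated 1 together the total was 1469 (1210 higher, 259 lower), and without aged 2 and aged 4 together 104 were lower. Genes whose groups do not overlap numbered 40 with the filter at 5 TPM, 763 without the 3 libraries, 742 without aged 2 and aged 4, and 107 to 498 without single libraries, where fewer libraries leave fewer chances to overlap.

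Some log2 differences changed sign. They were Cdkn2a 0.00 with a pseudocount of 5, Alb 0.00 after quantile normalization, and Cdkn2a 0.21, Zap70 0.01 and Igkc 0.06 with library weights. Without the 3 libraries they were Cdkn2a 0.62, Glb1 0.09, Lmnb1 0.05, Ptp4a3 0.00, H2-Oa 0.23, Zap70 0.11, Igkc 0.65 and Cela1 −0.02. Without aged 2 and aged 4 they were Tnnt3 0.09, Ckm 0.07, Alb 0.00, Ighm −0.07 and Cela1 −0.04. Over single left-out libraries the ranges were −0.41 to 0.34 for Cdkn2a, −0.12 to 0.04 for Glb1, −0.16 to 0.05 for Zap70, −1.12 to 0.14 for Igkc, −0.04 to 0.05 for Cela1, −0.19 to 0.94 for Ccl5, −0.21 to 0.04 for Alb, −0.66 to 0.41 for Ighm, −0.37 to 0.03 for Tk1, −0.12 to 0.57 for Lyz2 and −0.53 to 0.13 for H2-Oa. The median of 15 of the 37 gene lists changed sign in at least 1 of the alternatives and that of 22 in none. It did so in 8 alternatives for cell cycle genes, 7 each for cell cycle inhibitors and p53 targets and for bile duct markers, 4 each for MHC class II, B and plasma cell markers, ribosomal proteins and bile acid genes, 3 each for lysosomal, endothelial, stellate cell and lipid synthesis genes, 2 each for red cell and immediate early genes, and 1 each for T and NK cell markers and genes of other tissues. The causes were not tested.

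The labels do not say whether equal replicate numbers pair the libraries, and the main fit did not pair them. The correlations that follow cannot settle this. Treated and aged libraries of equal number had deviations correlated at −0.248 to 0.309, and 2 of the 5 treated libraries correlated best with their own number. With the replicate number as a block, 1 gene was called and 471 had an unadjusted p under 0.05 (318 higher, 153 lower). The mitochondrially encoded list has no value in the fit without mitochondrial genes. The unknown depth limits what can be said of genes near 0 TPM.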

Other observations

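Some genes with small p lie outside the naming rule and are given here after their values were seen, with no test beyond the fit over all genes. They are a selection and not the genes with the smallest p. The variable segment Ighv1-22, for instance, had a smaller p (limma adjusted p = 0.404) and is not described. Dnah7a, an axonemal dynein gene, stood at 3.17, 8.71, 3.64, 6.36 and 1.45 TPM in treated livers 1 to 5, against 0.5, 0, 0, 0.16 and 0 TPM in aged livers 1 to 5. The groups do not overlap, and the log2 difference of Dnah7a was 2.19 (SE 0.50, limma adjusted p = 0.925). Summed with its copies Dnah7b and Dnah7c, the level was 5.27 ± 2.31 TPM in treated livers, 0.138 ± 0.216 TPM in aged livers (SD, n = 5 each), and 3.54, 2.23, 0, 8.42 and 2.37 TPM in young livers 1 to 5. The sum was thus above 0 in 4 of 5 young libraries.

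Epha5, an ephrin receptor gene, stood at 1.86, 3.04, 6.98, 3.92 and 0.33 TPM in treated livers, and in aged livers it was listed at 0 in all but aged 2, which held 0.61 TPM. The log2 difference of Epha5 was 1.71 (SE 0.38, limma adjusted p = 0.925). Treated 5 lay below aged 2. Hand2os1, an antisense RNA gene, averaged 3.35 ± 0.935 TPM in treated livers and 1.23 ± 0.28 TPM in aged livers without overlap (log2 difference 0.95, limma adjusted p = 0.925).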
